A study of Mus musculus with 9 samples.

Results

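The genes described are 9 established targets of the transcriptional coactivator YAP and its DNA-binding partners of the TEAD family, namely Ccn1, Ccn2, Ankrd1, Amotl1, Amotl2, Ajuba, Lats2, Axl and Crim1. They were taken by name from the genes on the array, each was measured by 1 probe set with no other annotated gene, and they stand among 19938 genes in all. Expression was measured in 3 lines of the mouse mammary carcinoma 4T1, with 3 arrays each. DR500 cells are the survivors of stepwise selection of 4T1 cells with the anthracycline doxorubicin at up to 500 ng/ml. MR20 cells are the survivors of selection with the folate antagonist methotrexate, which the sample labels give as 20 µg/ml. The text of the study gives the same figure in ng/ml, and some label fields of DR500 name methotrexate where the treatment text names doxorubicin, which is the drug used here. 4T1 cells were untreated and cultured in parallel with MR20. In the labels both selections lasted up to 2 weeks, and a recovery of 2 weeks without drug is given for MR20. The methods of the study describe a longer doxorubicin selection in weekly steps and a drug-free recovery after either selection. Each selected line is 1 selection, so the 3 arrays of a line are wells of the same line and p-values measure only the spread between wells. The extraction text of DR500 names a control called WTR-, and whether it is the 4T1 culture of these arrays is not stated. Array batches are not stated, so a batch of the DR500 arrays and the line cannot be told apart.

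YAP and its relative TAZ carry no DNA-binding domain and switch on genes through TEAD factors. The Hippo kinase cascade holds them back, since its last kinases, LATS1 and LATS2, phosphorylate YAP and TAZ, which are then kept out of the nucleus and degraded. The output is known to follow cell density, cell shape, matrix stiffness and junctions, and in mammary tumors it has been linked to growth and invasion. Ccn1, Ccn2 and Ankrd1 are the transcripts most often used to read it. Amotl1, Amotl2, Ajuba and Lats2 are targets that also act in the cascade, and Axl and Crim1 are cell surface genes.

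Promoters of 8 of the 9 genes were matched in RefSeq (GRCm38.p6), all except Ccn2, and the 250 bases before the gene start were searched for the TEAD core motif GGAATG on both strands, where the other strand reads CATTCC. The motif occurred in 6 of these 8 genes, against 14.4% of 27025 genes in the table and 12.6% of 32851 promoters. Ankrd1 and Ajuba held 2 matches each, Ccn1, Amotl2, Axl and Crim1 held 1, and Amotl1 and Lats2 held 0. Stretches of 60 bases around a match are shown, because genes that fell (Ccn1, Ankrd1, Ajuba), a gene that rose in DR500 (Crim1) and genes that passed no test (Amotl2, Axl) share it, with the motif in capitals.
Ccn1, chr3:145650056-145650115, minus strand: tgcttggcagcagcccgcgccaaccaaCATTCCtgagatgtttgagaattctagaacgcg
Ankrd1, chr19:36119935-36119994, minus strand: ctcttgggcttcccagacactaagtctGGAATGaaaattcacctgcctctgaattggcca
Ajuba, chr14:54577804-54577863, minus strand: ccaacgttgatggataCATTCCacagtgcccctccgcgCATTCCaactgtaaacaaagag
Crim1, chr17:78200142-78200201, plus strand: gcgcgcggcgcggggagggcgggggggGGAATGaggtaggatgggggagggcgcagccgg
Amotl2, chr9:102717712-102717771, plus strand: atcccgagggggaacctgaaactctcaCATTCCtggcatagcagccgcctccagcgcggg
Axl, chr7:25788924-25788983, minus strand: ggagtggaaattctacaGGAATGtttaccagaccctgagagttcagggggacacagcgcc
The matches began 103 bases before the start in Ccn1, 210 and 123 in Ankrd1, 186 and 164 in Ajuba, 79 in Crim1, 65 in Amotl2 and 233 in Axl. The AP-1 motif TGANTCA, which reads alike on both strands, and the CArG box of the serum response factor occurred in 0 of the 8 genes, against 7.82% and 1.62% of genes. A match is a run of letters and was not tested as a binding site, and the array annotation rests on another genome build.

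Values are log2 expression values after robust multi-array normalization, in which a difference of 1 is 2-fold. A gene rose or fell where limma gave an adjusted p under 0.05 over the 19938 genes, and each fold change rests on 3 arrays per line. In DR500 cells relative to 4T1 cells, Ccn2, Ankrd1, Ajuba, Ccn1 and Lats2 fell and Crim1 rose, with no change passing the test in Amotl1, Amotl2 and Axl. These 5 falls of 9 genes stand beside 21.3% of all genes that fell, and the 1 rise beside 20.2% that rose. Beyond 2-fold, 3 of the 9 fell, against 3.09% of all genes, and 0 rose, against 2.47%. In MR20 cells relative to 4T1 cells, Ajuba, Ankrd1, Lats2, Crim1 and Ccn2 fell and Ccn1 rose, against 17.1% of genes that fell and 15.4% that rose, and no member changed beyond 2-fold (1.08% of genes fell and 1.41% rose that far). Between the selected lines, Ccn2, Ankrd1, Ccn1 and Ajuba were lower and Crim1 was higher in DR500 than in MR20, where 20.6% of all genes were lower and 21.2% higher. Of these, Ccn2, Ankrd1 and Ccn1 were lower beyond 2-fold, against 3.23% of all genes, and Crim1 was higher beyond 2-fold, against 2.87%. The 9 genes had a median log2 fold change of -0.50 in DR500 against 4T1, -0.38 in MR20 against 4T1 and -0.11 in DR500 against MR20, beside medians of 0.07, -0.01 and 0.07 over all genes. Both comparisons with 4T1 use the same 4T1 arrays and are not independent. In RNA from whole cultures, fewer expressing cells and less RNA per cell cannot be told apart.

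**Figure D1:**
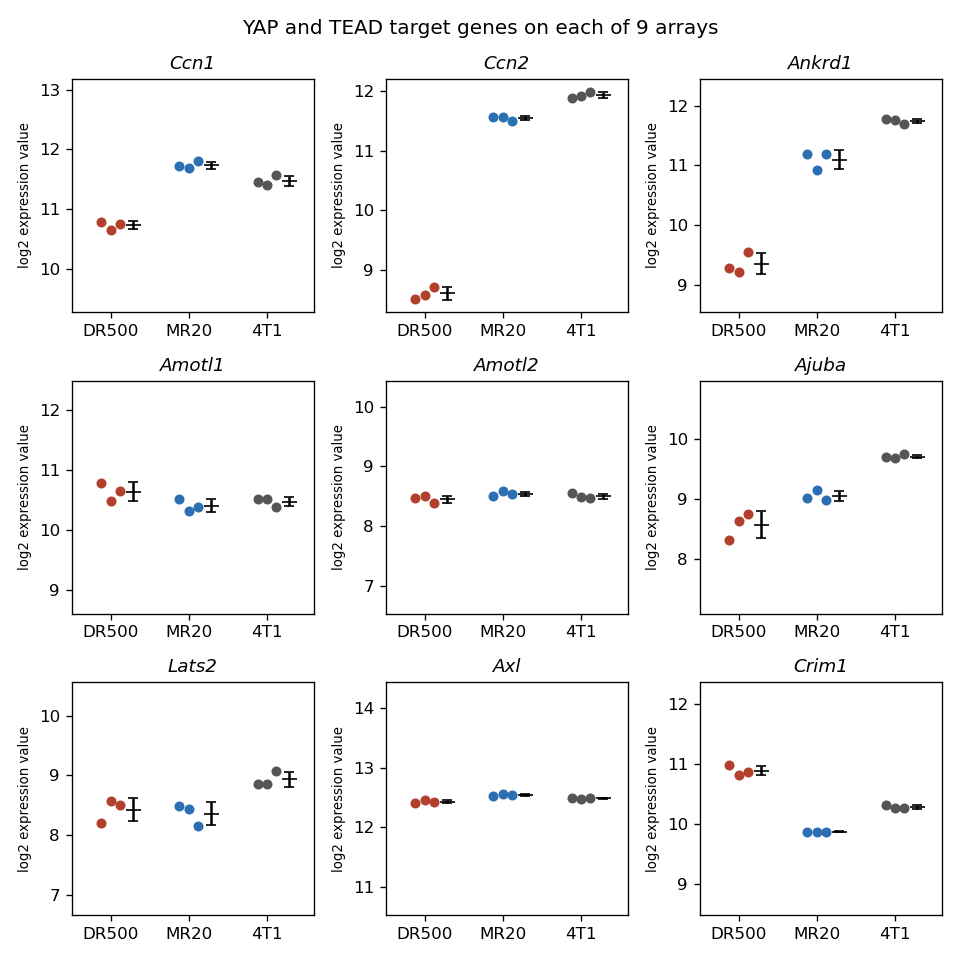
Log2 expression values (y axis, the same span of 3.9 in each panel) of the 9 genes on each array of DR500, MR20 and 4T1 (x axis). Points are arrays, and the black bar beside them is the mean with the standard deviation of 3 arrays. Ccn2 averages 8.61 in DR500, 11.54 in MR20 and 11.93 in 4T1, while Axl stays between 12.40 and 12.55 on all arrays.

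Ccn2 encodes a secreted matricellular protein, formerly called connective tissue growth factor, that promotes matrix production and adhesion. Its log2 values were 8.52, 8.58 and 8.72 in DR500, 11.57, 11.56 and 11.50 in MR20 and 11.89, 11.91 and 11.98 in 4T1. The 3 lines did not overlap, and DR500 lay far below both other lines. Ccn2 fell by 3.32 in DR500 against 4T1 (9.97-fold, SE = 0.07, limma adjusted p = 3.05e-10), the fall that ranked 38 among all genes. In MR20 it fell by 0.38 (1.30-fold, SE = 0.07, limma adjusted p = 0.00113), and DR500 lay 7.65-fold below MR20 (-2.94, SE 0.07, adjusted p = 3.09e-10). The genes whose pattern over the 9 arrays was most like that of Ccn2 were Lipg, an endothelial lipase gene (Pearson's r = 0.999), the cardiac troponin gene Tnnt2 (0.999) and Mpzl2 (0.999), an adhesion gene. Since the arrays fall into 3 lines, such a correlation mostly compares line means and carries no test.

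Ccn1, formerly Cyr61, encodes a relative of Ccn2 that acts on cells through integrins. Its values were 10.78, 10.65 and 10.75 in DR500, 11.72, 11.69 and 11.81 in MR20 and 11.46, 11.40 and 11.57 in 4T1. The arrays of DR500 were the lowest and those of MR20 the highest, with no overlap between lines. Ccn1 fell by 0.75 in DR500 (1.68-fold, SE = 0.07, limma adjusted p = 7.44e-06) and rose by 0.26 in MR20 (1.20-fold, SE = 0.07, limma adjusted p = 0.0112). Thus both selected lines lay on opposite sides of 4T1, and they differed by 1.01 between them (DR500 against MR20, -1.01, SE 0.07, adjusted p = 7.41e-07). With 4T1 replicate 2 left out, the difference of MR20 from 4T1 was 0.22 and missed the threshold (adjusted p = 0.0545). In DR500 the fall of Ccn2 was the larger one, with 95% confidence intervals of -3.46 to -3.17 for Ccn2 and -0.89 to -0.60 for Ccn1. The genes most like Ccn1 over the arrays were Rbm43 (r = 0.997), Rbm22 (0.996), a splicing factor gene, and Ddah1 (0.994), which encodes an enzyme that degrades methylated arginine.

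Ankrd1 encodes an ankyrin repeat protein of striated muscle and nucleus that is induced by mechanical load. It had values of 9.28, 9.22 and 9.55 in DR500, 11.19, 10.91 and 11.18 in MR20 and 11.77, 11.76 and 11.70 in 4T1. DR500 was the lowest and 4T1 the highest line, without overlap. Ankrd1 fell by 2.39 in DR500 (5.26-fold, SE = 0.10, limma adjusted p = 3.25e-08), the fall that ranked 82 among all genes, and by 0.65 in MR20 (1.56-fold, SE = 0.10, limma adjusted p = 5.97e-04). DR500 lay below MR20 by 3.36-fold (-1.75, SE 0.10, adjusted p = 2.65e-07). Closest to it over the arrays were G930009F23Rik (r = 0.998), the mitochondrial ATP synthase gene Atp5d (0.997) and Rhbdf1 (0.997).

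**Figure D2:**
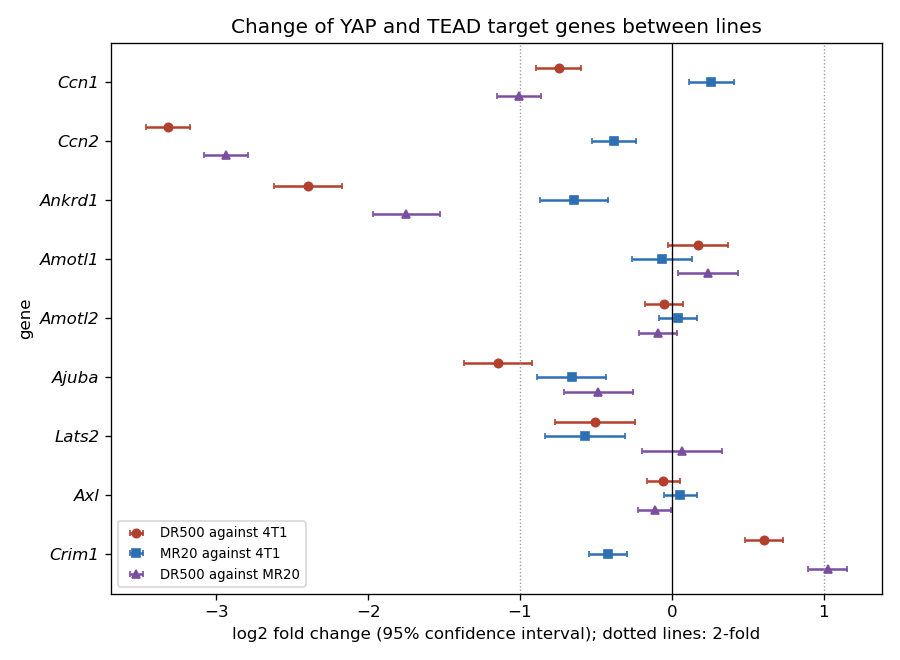
Log2 fold changes (x axis) of the 9 genes (y axis) in DR500 against 4T1, MR20 against 4T1 and DR500 against MR20, with 95% confidence intervals from limma and dotted lines at 2-fold. Ccn2 (-3.32) and Ankrd1 (-2.39) lie furthest left in DR500 against 4T1, and the intervals of Amotl2 span 0 in all 3 comparisons.

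Among the targets that act in the Hippo cascade, Ajuba and Lats2 fell in both selected lines and the angiomotin-like genes did not pass the test. Ajuba encodes a LIM domain protein of cell junctions that binds LATS kinases and restrains them. Its values were 8.31, 8.64 and 8.74 in DR500, 9.01, 9.15 and 8.98 in MR20 and 9.69, 9.69 and 9.74 in 4T1, again in 3 separate ranges. It fell by 1.14 in DR500 (2.21-fold, SE = 0.10, limma adjusted p = 7.40e-06) and by 0.66 in MR20 (1.58-fold, SE = 0.10, limma adjusted p = 5.57e-04), and the lines differed by -0.48 (DR500 against MR20, adjusted p = 0.00288).

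Lats2 encodes a kinase that inactivates YAP and TAZ and is itself switched on by them, as negative feedback. It had values of 8.20, 8.57 and 8.50 in DR500, 8.49, 8.44 and 8.14 in MR20 and 8.86, 8.86 and 9.07 in 4T1. Both selected lines lay below every 4T1 array and overlapped with each other. Lats2 fell by 0.50 in DR500 (SE = 0.12, limma adjusted p = 0.00562) and by 0.57 in MR20 (SE = 0.12, limma adjusted p = 0.00360). The difference of DR500 from MR20 was 0.07, with a 95% confidence interval of -0.20 to 0.33, and its sign turned when MR20 replicate 3 (-0.04) or DR500 replicate 2 (-0.0038) was left out.

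Amotl1 and Amotl2 encode scaffold proteins of tight junctions and actin that bind YAP and hold it outside the nucleus. Amotl1 ranged over 10.79, 10.48 and 10.66 in DR500, 10.52, 10.31 and 10.38 in MR20 and 10.51, 10.52 and 10.38 in 4T1, and the 3 lines overlapped. Its log2 fold change was 0.17 in DR500 against 4T1 (95% confidence interval -0.03 to 0.37, adjusted p = 0.156 from limma) and -0.07 in MR20 against 4T1 (-0.27 to 0.13). Without DR500 replicate 2 the difference of DR500 from 4T1 passed the test (0.25, adjusted p = 0.0416). Between DR500 and MR20 it was 0.24 (adjusted p = 0.0539), and over 17 alternatives the adjusted p ranged from 0.0148 to 0.170 and was under 0.05 in 7. Amotl2 held values of 8.47, 8.50 and 8.39 in DR500, 8.51, 8.58 and 8.53 in MR20 and 8.55, 8.48 and 8.48 in 4T1. DR500 lay below MR20 on every array, and both overlapped with 4T1. Its log2 fold change was -0.05 in DR500 against 4T1 (95% confidence interval -0.18 to 0.07), 0.04 in MR20 against 4T1 (-0.08 to 0.17) and -0.09 in DR500 against MR20 (-0.22 to 0.03).

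Of the cell surface genes, Crim1 changed in both selected lines and Axl passed no test. Axl encodes a receptor tyrosine kinase of the TAM family, which binds the ligand Gas6 and is known in invasive and drug-resistant carcinoma cells. It had values of 12.40, 12.46 and 12.42 in DR500, 12.52, 12.55 and 12.55 in MR20 and 12.49, 12.47 and 12.49 in 4T1. The ranges of the lines did not overlap, but the differences were small, -0.06 in DR500 against 4T1 (95% confidence interval -0.17 to 0.05, adjusted p = 0.394 from limma) and 0.06 in MR20 against 4T1 (-0.05 to 0.17, adjusted p = 0.488). The difference of DR500 from MR20 was -0.11 (adjusted p = 0.0944), and it passed with a filter on dim genes (0.0337) and with an intensity trend in the variance (0.00743). Counted by ranges that do not overlap, 6 of the 9 genes were lower and 1 higher in DR500 than in 4T1, where 24.4% of all genes were lower and 25.7% higher in this way. In MR20 against 4T1, 5 were lower and 2 higher (23.8% and 21.4% of all genes), and in DR500 against MR20, 6 were lower and 1 higher (23.4% and 26.4%).

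Crim1, which encodes a transmembrane protein that binds bone morphogenetic proteins, was the 1 gene of the 9 that rose in DR500. Its values were 10.98, 10.82 and 10.87 in DR500, 9.87, 9.86 and 9.87 in MR20 and 10.32, 10.27 and 10.26 in 4T1. DR500 was the highest and MR20 the lowest line, without overlap. Crim1 rose by 0.61 in DR500 (1.52-fold, SE = 0.06, limma adjusted p = 1.16e-05), fell by 0.42 in MR20 (1.34-fold, SE = 0.06, limma adjusted p = 2.63e-04) and was 2.04-fold higher in DR500 than in MR20 (1.03, adjusted p = 2.15e-07). Its change thus ran opposite to that of Ccn1 in both comparisons with 4T1.

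Yap1, Wwtr1, Tead1 and Tead2, which encode YAP, TAZ and partners of the TEAD family, rose in DR500. Of 10 measured genes of the coactivators, TEAD factors and VGLL cofactors, 5 rose and 1 fell in DR500 (median 0.28), and 2 rose and 1 fell in MR20 (median 0.03). Over all genes, 20.2% rose and 21.3% fell in DR500, and 15.4% rose and 17.1% fell in MR20. The rises of this list in DR500 were 7 after a repeated quantile normalization or after centring. They were 6 with the filter on dim genes or without DR500 replicate 2. Wwtr1, which encodes TAZ, averaged 11.24 ± 0.03 in DR500, 10.46 ± 0.09 in MR20 and 10.60 ± 0.02 in 4T1 (SD, n = 3) and rose by 0.64 in DR500 (SE = 0.06, limma adjusted p = 1.12e-05). Yap1 rose by 0.40 in DR500 (SE = 0.05, limma adjusted p = 1.04e-04) and had a log2 fold change of 0.07 in MR20 (adjusted p = 0.373). Tead1 rose by 0.60 in DR500 (SE 0.07), and Tead2 rose in both lines, by 0.63 in DR500 and 0.70 in MR20. Vgll3, a cofactor gene that competes with YAP for TEAD, fell by 1.16 in DR500 and 0.82 in MR20, and Vgll4, which restrains TEAD output, rose by 0.40 in DR500 and 0.61 in MR20. Transcript levels do not show where YAP and TAZ proteins lie in the cell, which was not measured here.

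The kinase genes of the cascade moved in both directions. Of 13 measured kinase cascade genes out of 16 listed, Lats2 included, 4 rose and 3 fell in DR500 (median 0.04), and 4 rose and 2 fell in MR20 (median 0.05). These counts stand beside 20.2% of all genes that rose and 21.3% that fell in DR500, and 15.4% and 17.1% in MR20. Map4k4, a kinase that can activate LATS, rose by 1.00 in DR500 (SE = 0.06, limma adjusted p = 3.58e-07). Lats1 fell by 0.61 in DR500 (SE 0.05), and Stk38l, a relative of the LATS kinases, rose by 0.51 in DR500 and 0.74 in MR20. Taok1 and Taok2, kinases that act on the cascade, rose by 0.44 and 0.40 in MR20.

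Among 22 upstream regulators, which include Ajuba, Amotl1 and Amotl2, 4 rose and 9 fell in DR500 (median -0.08), and 5 rose and 6 fell in MR20 (median 0.04). The shares over all genes were 20.2% and 21.3% in DR500, and 15.4% and 17.1% in MR20. In MR20, 5 rose and 4 fell after centring each array on its median, and 5 rose and 3 fell without MR20 replicate 2. Wwc1, which encodes the scaffold KIBRA, fell by 2.02 in DR500 (4.06-fold, SE = 0.05, limma adjusted p = 1.31e-09), the polarity gene Patj by 1.22 and Rassf6 by 1.18. Nf2, which encodes the tumor suppressor merlin, an activator of the cascade at the membrane, fell by 1.09 in DR500 (limma adjusted p = 1.27e-05). It also fell by 0.37 in MR20 (limma adjusted p = 0.0195). The fall in MR20 did not pass after centring (0.0575) or without 4T1 replicate 1 (0.0725), 4T1 replicate 2 (0.0516) or MR20 replicate 2 (0.0798). Amot, the namesake of the angiomotin family, averaged 6.56 ± 0.15 in DR500, 8.32 ± 0.04 in MR20 and 7.58 ± 0.08 in 4T1 (SD, n = 3). It fell by 1.02 in DR500 and rose by 0.74 in MR20, unlike its relatives Amotl1 and Amotl2. In MR20, Limd1, a relative of Ajuba, rose by 0.51, and the polarity gene Crb3 fell by 0.54 (adjusted p = 0.0188), which did not pass without 4T1 replicate 1 (0.0643), 4T1 replicate 2 (0.0507) or MR20 replicate 2 (0.0734).

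Other genes that have been described as YAP and TEAD targets, mostly in human cells, moved in both directions. Of 15 such genes, 6 rose and 5 fell in DR500 (median 0.18), and 3 rose and 4 fell in MR20 (median -0.05). Beside them, 20.2% of all genes rose and 21.3% fell in DR500, and 15.4% rose and 17.1% fell in MR20. After a repeated quantile normalization, 10 rose and 5 fell in DR500. Foxf2, a forkhead factor gene, rose by 2.33 in DR500 (5.02-fold, SE = 0.09, limma adjusted p = 1.28e-08), and Arhgef17, which encodes an activator of RhoA, by 1.19. The kinase gene Nuak2 fell by 1.22 in DR500. Nt5e, which encodes the ectoenzyme CD73, averaged 11.35 ± 0.04 in DR500, 9.91 ± 0.12 in MR20 and 11.91 ± 0.02 in 4T1 (SD, n = 3). It fell by 0.56 in DR500 and by 2.00 in MR20 (4.00-fold, SE = 0.07, limma adjusted p = 1.62e-08). In MR20, the coagulation gene F3 rose by 0.64 and Arhgef17 by 0.46, and the growth arrest gene Gadd45a fell by 0.54.

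**Figure D3:**
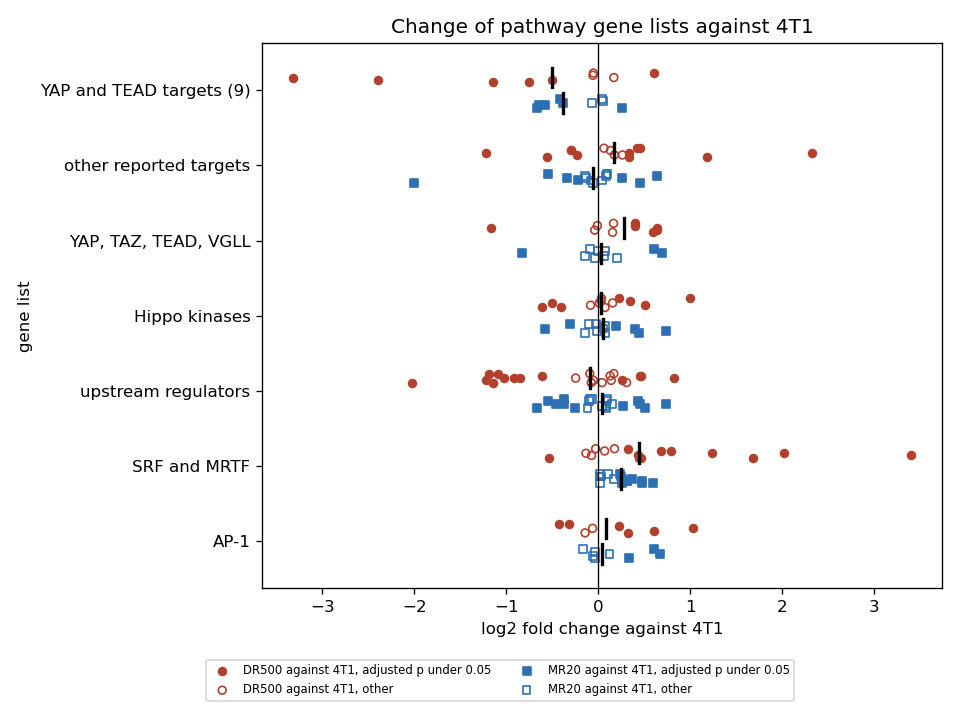
Differences from 4T1 on the log2 scale (x axis) for the 9 genes and for 6 gene lists of the pathway and its partners (y axis), with DR500 above MR20 in each row. Each point is a gene, filled where the adjusted p was under 0.05, and black bars are medians, which are -0.50 in DR500 and -0.38 in MR20 for the 9 genes.

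Among relatives of the 9 genes, Ccn3, Ccn5 and Mertk rose in DR500, and Ccn4, Tyro3, Amot, Lats1 and Ankrd23 fell. The list of 14 genes held such relatives and the Axl ligand gene Gas6. Some of them, such as Amot and Lats1, were also counted in the lists above. Of the 14, 3 rose and 5 fell in DR500 (5 and 5 after a repeated quantile normalization) and 2 rose and 3 fell in MR20. Shares over all genes were 20.2% and 21.3% in DR500, and 15.4% and 17.1% in MR20. In the CCN family, Ccn5 averaged 9.98 ± 0.21 in DR500, 7.22 ± 0.18 in MR20 and 7.23 ± 0.26 in 4T1 (SD, n = 3), and rose by 2.75 in DR500 (6.71-fold, SE = 0.15, limma adjusted p = 1.96e-07). Ccn3 rose by 2.27 in DR500 (SE 0.08, 4.82-fold), opposite to Ccn1 and Ccn2. Ccn4 fell in DR500 like Ccn1 and Ccn2, with means of 6.87 in DR500, 6.84 in MR20 and 7.30 in 4T1. Unlike Ccn1 and Ccn2, it was thus about as low in MR20 as in DR500. In the TAM family, Mertk averaged 8.36 ± 0.17 in DR500, 5.15 ± 0.20 in MR20 and 6.04 ± 0.07 in 4T1, and rose by 2.32 in DR500 and fell by 0.89 in MR20, while Axl passed no test. Tyro3, another gene of this family, fell in DR500, with means of 7.69 in DR500 and 8.30 in 4T1. Ankrd23, a relative of Ankrd1, fell by 0.56 in MR20 and fell by 0.83 in DR500.

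Ccn1, Ccn2 and Ankrd1 are also known to respond to the serum response factor SRF with its MRTF cofactors, and TEAD factors often act beside AP-1. Of 16 genes of SRF, MRTF and their contractile targets, 10 rose and 1 fell in DR500 (median 0.44) and 9 rose and 0 fell in MR20 (median 0.25, with 0 of the 16 fold changes below 0, so that 0 fell at an unadjusted p under 0.05 too). Tpm2, a tropomyosin gene, rose by 3.40 in DR500 (10.6-fold, SE = 0.08, limma adjusted p = 5.99e-10) and by 0.47 in MR20. Actg2, Acta2 and Tagln, smooth muscle genes of the actin cytoskeleton, rose by 2.02, 1.68 and 1.24 in DR500, and in MR20 Acta2 rose by 0.60 and the focal adhesion gene Zyx by 0.48. Tagln in MR20 (0.37, adjusted p = 0.0318) missed the threshold with all probe sets tested (0.0688) or with any 1 of 4T1 replicate 2 (0.0909), 4T1 replicate 3 (0.113), MR20 replicate 1 (0.101) and MR20 replicate 2 (0.0920) left out. Of 8 AP-1 genes, 4 rose and 2 fell in DR500 and 3 rose and 0 fell in MR20 (1 fell at an unadjusted p under 0.05 from limma). The counts of both lists stand beside 20.2% of all genes that rose and 21.3% that fell in DR500, and 15.4% and 17.1% in MR20. Fos rose by 1.04 in DR500 and 0.67 in MR20, Fosl1 rose by 0.61 and Jun by 0.33 in DR500, Jund fell by 0.43 in DR500, and Fosb rose by 0.61 in MR20. Atf3 in MR20 (0.33, adjusted p = 0.0260) missed it with all probe sets tested (0.0565) or with any 1 of 4T1 replicate 1 (0.0615), 4T1 replicate 2 (0.1002), MR20 replicate 1 (0.0894) and MR20 replicate 3 (0.0787) left out.

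The fall of Ccn2, Ankrd1, Ajuba, Ccn1 and Lats2 in DR500 went along with a fall of epithelial markers. In MR20, Ccn2, Ankrd1, Ajuba and Lats2 fell too, while Ccn1 rose, and Crim1, which rose in DR500, fell. In that line 0 of the 10 epithelial markers fell (up to 2 over the 17 alternatives). Of 10 markers of mammary epithelial carcinoma cells, 0 rose and 8 fell in DR500 (0 rose at an unadjusted p under 0.05 from limma), and 5 rose and 0 fell in MR20 (2 fell at an unadjusted p). The MR20 count rested on single arrays, with 2 rising without 4T1 replicate 2 or 4T1 replicate 3, and 3 rising without any 1 of the MR20 arrays or with all probe sets tested. Their summed linear values were 17664 to 19193 in DR500, 42940.2 to 43800 in MR20 and 37389.5 to 39263 in 4T1. Epcam and Cdh1, defining genes of epithelial cells, had log2 fold changes of -4.19 and -3.84 in DR500 and fell. Krt8, a keratin gene of simple epithelia, averaged 13.43 in DR500, 13.60 in MR20 and 13.41 in 4T1 (DR500 against 4T1, adjusted p = 0.758). Of 12 fibroblast markers, 3 rose and 1 fell in DR500, and 1 rose and 2 fell in MR20. Their sums were 4809.7 to 5169 in DR500, 1037 to 1083 in MR20 and 1202 to 1279 in 4T1. The count of rises in DR500 was 7 after a repeated quantile normalization, 6 after centring and 6 without DR500 replicate 3. Fbln1, a matrix gene, and Pdgfra, a growth factor receptor gene, rose by 3.70 and 1.70 in DR500, and without them the sum of the other 10 markers was 687 to 807 in DR500, 687 to 741 in MR20 and 638 to 693 in 4T1. In MR20, Fbln1 and Pdgfra averaged 6.95 and 7.74, beside 7.94 and 8.37 in 4T1. The 1 fibroblast marker that fell in DR500 was Postn (-0.97), with means of 4.55 in DR500, 6.86 in MR20 and 5.52 in 4T1. The median log2 fold change of all 12 in DR500 was 0.18. Of 9 leukocyte markers, 2 rose and 1 fell in DR500, and 2 rose and 1 fell in MR20. Their sums were 2840.3 to 3125 in DR500, 2130.3 to 2205 in MR20 and 1820.1 to 1922 in 4T1. These sums hold large opposite changes. Cd53 averaged 9.17 in DR500, 5.78 in MR20 and 4.83 in 4T1. In the same order, Cd68 averaged 11.07, 10.00 and 8.77, and Lcp1, which fell in DR500, 5.39, 9.72 and 10.18. Of 8 endothelial markers 0 passed the test in any comparison (1 was higher in DR500 than in 4T1, and 2 higher in DR500 than in MR20, at an unadjusted p). The array values have no true zero, and 5 of the 12 fibroblast, 6 of the 9 leukocyte and 7 of the 8 endothelial markers lay below the array median on every DR500 array. All marker counts stand beside 20.2% of all genes that rose and 21.3% that fell in DR500, and 15.4% and 17.1% in MR20. The part of these cell type markers in the changes of the 9 genes was not tested.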

How the data were processed

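RNA from 3 wells each of DR500, MR20 and 4T1 cells was measured on Affymetrix whole-transcript arrays for mouse, in 1 colour. The deposited values are log2 expression values that the authors made by robust multi-array normalization with affy (background correction, quantile normalization, summary per probe set), and the authors tested them with limma. Versions, array batches and whether all arrays were normalized in 1 run are not given in the sources used here. The array median over 35556 probe sets was 6.24 to 6.38. Precision is limited by the number of arrays.

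Of these probe sets, 21789 had exactly 1 gene symbol, and 21698 of them were matched to a current symbol by Entrez identifier. The brightest probe set by mean over 9 arrays stood for a gene, which left 19938 genes. All 9 arrays entered one fit in limma 3.58.1 (R 4.3.3, package data.table, version 1.17.8) with a mean per line, empirical Bayes moderation, 6 residual degrees of freedom and Benjamini-Hochberg adjustment over all genes within a comparison. With 3 arrays a line, the smallest p of an exact permutation test is 0.1, so none was used. The fit was tested on simulated data. Figures were drawn with matplotlib 3.10.9 in Python 3.11.15. Summed marker values are sums of 2 to the power of the log2 values.

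The 9 genes and all gene lists were chosen with earlier results of these data known. Named were the 9 genes, up to 4 members of each list with the largest changes at an adjusted p under 0.05 in a comparison, and the 3 genes most correlated with Ccn1, Ccn2 and Ankrd1. Nf2, Krt8, Epcam, Cdh1, Fbln1, Pdgfra, Postn, Cd53, Cd68, Lcp1, Ccn4, Tyro3, Asap1 and Fhl2 were named in addition, after their values were seen. Settings changed one at a time were the lines in the fit (both compared lines alone), a filter on dim genes, quantile normalization applied again, arrays centred on their medians, the mean of all probe sets, all probe sets tested, an intensity trend, the replicate number as a block and leaving out each array. Comparisons of protein sequences are not reported here.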

Additional observations from a re-analysis of the deposited data

Results flagged for a closer look

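Both selected lines can be set against the same 4T1 arrays, and in 5 of the 9 genes their changes differed from each other by limma's test of DR500 against MR20. DR500 was lower in 4 of them and higher in 1, beside 20.6% of all genes that were lower and 21.2% that were higher. The difference was -2.94 in Ccn2 (adjusted p = 3.09e-10), -1.75 in Ankrd1 (adjusted p = 2.65e-07), -1.01 in Ccn1 (adjusted p = 7.41e-07), -0.48 in Ajuba (adjusted p = 0.00288) and 1.03 in Crim1 (adjusted p = 2.15e-07). In Ccn1 and Crim1 the lines moved in opposite directions from 4T1.

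In 7 genes of the pathway lists the lines also moved in opposite directions with both changes against 4T1 and the difference past the threshold of limma. DR500 was lower than MR20 in Amot (-1.76), Nuak2 (-1.48), Fosb (-0.92) and Fhl2 (-0.79) and higher in Mertk (3.21), Asap1 (0.68) and Stk38 (0.53). In Nuak2 the rise in MR20 was 0.26 (adjusted p = 0.0304), and it did not pass with all probe sets tested (0.0600) or without any one of 4T1 replicate 1 (0.0692), 4T1 replicate 2 (0.0810), 4T1 replicate 3 (0.0837), MR20 replicate 1 (0.111) or MR20 replicate 2 (0.117). In Stk38 the rise in DR500 was 0.23 (adjusted p = 0.0213), and it did not pass without 4T1 replicate 2 (0.0832), 4T1 replicate 3 (0.0502) or DR500 replicate 3 (0.0641).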

How the results depend on the processing

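Over 17 alternatives, every fall named for the 9 genes kept its direction and its side of the threshold, as did the rise of Crim1 in DR500. The rise of Ccn1 in MR20 was lost without 4T1 replicate 2, so that leaving out 1 array gave 0 to 1 rises in MR20 against 4T1, 1 to 2 in DR500 against 4T1 and 1 to 2 in DR500 against MR20. Members higher in DR500 than in MR20 were 2 instead of 1, Amotl1 being the addition, with the filter on dim genes, the repeated quantile normalization, centring, the intensity trend and the replicate block. Amotl1 also passed there without MR20 replicate 1 or DR500 replicate 2. In DR500 against 4T1, the sign turned for Amotl2 (0.0546 after quantile normalization, 0.0058 after centring) and Axl (0.0406 and 0.00091), and in DR500 against MR20 for Lats2 without MR20 replicate 3 (-0.0398, the lowest) or DR500 replicate 2 (-0.0038), where leaving out 1 array gave up to 0.178, none of which passed the test. The cause was not tested. The median over all genes in DR500 against 4T1, 0.07, was 0.12 after either rescaling. Correlations of deviations between lines for the same replicate number ran from -0.309 to 0.327. With 3 arrays per line they cannot decide whether replicate numbers pair the arrays. The block changed no other call of the 9 genes. Of the calls of list genes, recomputed under each alternative, 3274 passed in the same direction, 130 did not pass and none changed direction. The number of arrays limits what small differences can show.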
